A study of Mus musculus with 8 samples.

Results

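Transcripts of 39 genes of fatty acid oxidation were followed by bulk RNA sequencing in 4 liver tumours and 4 non-tumour liver pieces of mice. The genes were taken by symbol from a list of enzymes of mitochondrial and peroxisomal oxidation, enzymes of ketone body metabolism and targets of PPAR alpha, out of 54838 gene IDs in the count files. All 39 were present and all 39 passed the filter on low counts, which left 13650 genes for testing. Both groups came from male wild-type C57BL/6J mice. All of them had been injected intraperitoneally with DEN (diethylnitrosamine, a carcinogen of the liver) at 15 days of age and then kept on a high-fat diet plus SW, which the labels leave unexpanded. The diet is said to have lasted 30 weeks, and the same 30 weeks also appear as the time since DEN, so the age of the mice is uncertain. Every library therefore shares DEN and the diet, and no untreated or normally fed liver is among them. Pieces are numbered 1 to 4 in each group, and whether each came from its own mouse is not stated. P-values thus measure only the spread between these samples, which may be technical. The comparison asks how the transcripts of this pathway in DEN-induced tumours differ from those in non-tumour liver pieces.

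Fatty acids are burned in the liver in several compartments. Acyl-CoA synthetases activate them, the carnitine shuttle carries them into mitochondria, and rounds of beta-oxidation there pass electrons to the respiratory chain and yield acetyl-CoA for ketone bodies. Peroxisomes shorten very long and branched chains, microsomal enzymes of the Cyp4a family oxidize the omega end, and acyl-CoA thioesterases release free fatty acids from CoA. PPAR alpha is a nuclear receptor that fatty acids activate. As a dimer with RXR it binds a direct repeat of AGGTCA with 1 base between the copies, and it raises transcription of most of these genes in fasting and in fat feeding.

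The reads assigned to genes numbered 15446690 in the shallowest library and 21977052 in the deepest. The 8 libraries held 5 distinct profiles. Tumour 2 and tumour 4 were near-identical, and so were non-tumour 2, 3 and 4. A chi-square of their gene counts, divided by its degrees of freedom, was 1.58 to 3.28 in these 4 pairs and 71.7 to 165 in the other 24. Each near-identical set was counted as 1 sample, which leaves n = 3 for tumour (tumour 1, tumour 2/4 and tumour 3) and n = 2 for non-tumour (non-tumour 1 and non-tumour 2/3/4). Over the 39 genes the median absolute log2 ratio was 0.0457 between tumour 2 and 4 and 0.0344 to 0.0638 among non-tumour 2, 3 and 4. It was 0.301 between the profiles non-tumour 1 and non-tumour 2/3/4 and 0.807 between tumour 3 and tumour 1. All 8 hepatocyte markers checked were detected, with a summed level of 121500 to 175600 CPM (counts scaled to a common library size after TMM) in tumour and 99380 to 114900 CPM in non-tumour libraries. Most of that sum is Alb (86660 to 139600 CPM in tumour, 73300 to 83140 CPM in non-tumour). Cps1 had the other order, with 920.4 to 1433 CPM in tumour and 1510 to 2461 CPM in non-tumour, and Ttr, Apob, Hnf4a, Serpina1c and Asgr1 overlapped between the groups. In bulk tissue, fewer cells of a type and less RNA per cell cannot be told apart.

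The PPAR alpha motif was looked for in the RefSeq promoters of the genes, since the receptor binds it. The promoter table (GRCm38.p6, 250 bases before to 50 bases after each start) held 31 of the 39 genes with 35 promoters. The motif searched was AGGTCA, any 1 base, AGGTCA, on both strands, with up to 2 of the 12 fixed bases mismatched. It was found in 4 of the 35 promoters, those of Etfa, Slc25a20, Creb3l3 and Acot4, and in 3.86% of 32851 promoters of the whole table. With at most 1 mismatch it was in 0 of the 35 and in 0.554% of all. No match says only that these letters are absent from this window. The 4 matches are printed on the strand of the gene, with the 13 bases of the motif in capitals and 8 bases on each side.
Etfa: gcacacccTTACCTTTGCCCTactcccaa
Slc25a20: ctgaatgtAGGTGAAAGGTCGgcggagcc
Creb3l3: ctgtaagtAGGGGAGAGGTCAcacagacc
Acot4: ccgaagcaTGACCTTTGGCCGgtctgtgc
They lie at chr9:55512300-55512328 (minus strand) for Etfa, chr9:108662134-108662162 (plus strand) for Slc25a20, chr10:81092780-81092808 (minus strand) for Creb3l3 and chr12:84038358-84038386 (plus strand) for Acot4. In Etfa and Acot4 the motif reads on the opposite strand. In Slc25a20 it begins 6 bases after the RefSeq start. The Creb3l3 match lies before a RefSeq start that is inside the Ensembl gene.

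No gene of the pathway differed between tumour and non-tumour past the threshold. With edgeR's quasi-likelihood test on the 5 profiles and Benjamini-Hochberg adjustment over all genes, 0 of the 39 genes and 0 of the 13650 tested (0%) were called at 0.05. The smallest adjusted p over all genes was 0.995. At an unadjusted p under 0.05 there were 3 of the 39 (7.69%), Vnn1, Bdh1 and Cyp4a31, beside 451 of all genes (3.30%). DESeq2 called 0 of the 39 and 2 of all genes, with 3 of the 39 and 577 of all genes (4.23%) at an unadjusted p under 0.05. limma voom called 0 of the 39 and 0 of all genes, with 5 of the 39 and 1086 of all genes (7.96%) at that level. The log2 fold change (tumour minus non-tumour) was positive for 28 and negative for 11 of the 39 genes, and positive for 7121 of all 13650. The median was 0.10 against 0.01 over all genes tested. In the pathway the fold change ran from -0.47 for Ppara to 1.43 for Fgf21. This balance rested on tumour 3: without it the fold change was positive for 13 of the 39 genes, with a median of -0.12, and with limma voom it was positive for 16, with a median of -0.06. Where the 8 libraries entered edgeR as separate samples, 0.435% of 12880 genes and 0 of the 39 were called, with 6 of the 39 and 18.0% of all genes at an unadjusted p under 0.05. That fit counts near-identical libraries as independent.

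**Figure D1:**
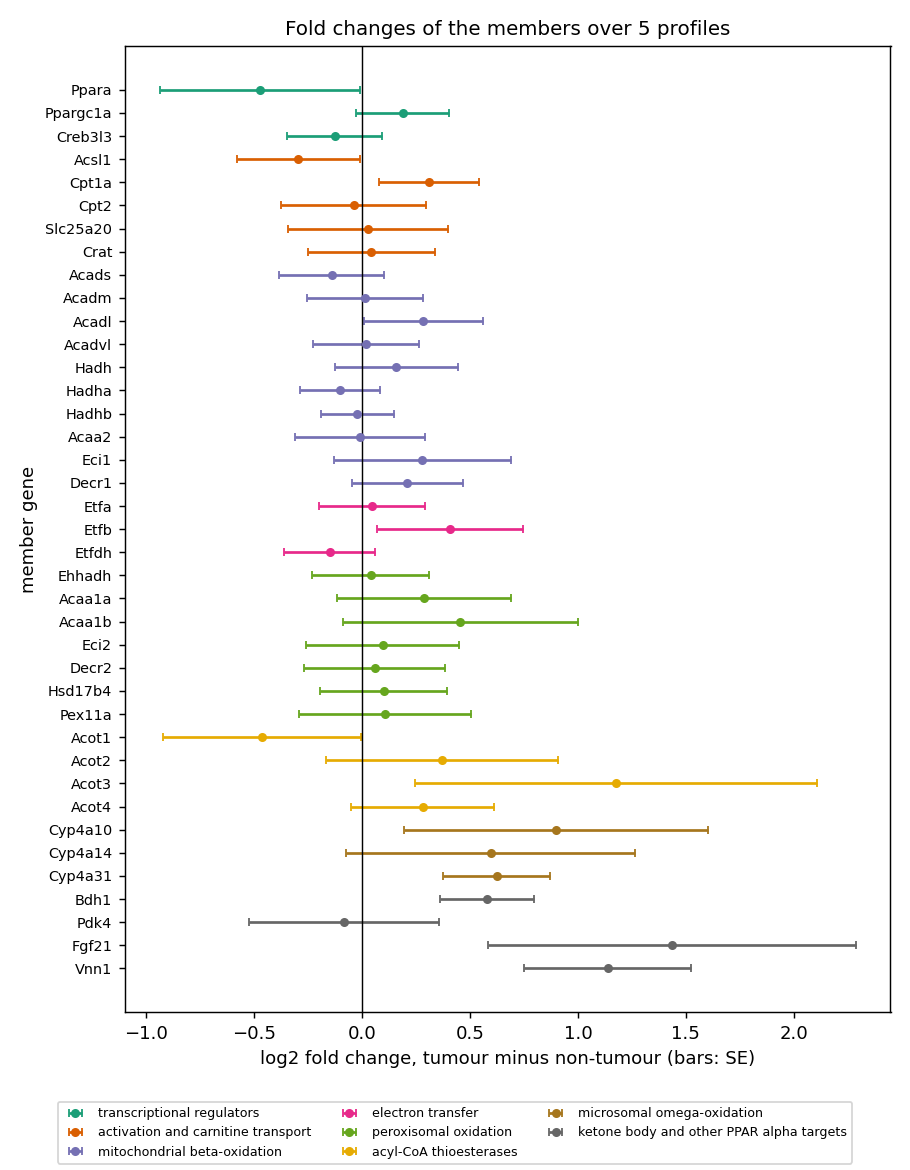
Log2 fold change of each of the 39 genes, tumour minus non-tumour, from edgeR on 5 profiles (x axis), with the genes grouped and coloured by role (y axis). Points are estimates and bars 1 standard error. Fgf21, Acot3 and Vnn1 lie farthest to the right, and most mitochondrial and peroxisomal genes have bars that cross 0.

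In 5 of the 39 genes (12.8%) every tumour profile lay above every non-tumour profile: Vnn1, Bdh1, Cyp4a31, Fgf21 and Cpt1a. Over all genes tested that share was 9.47%. The margin between tumour 3 and non-tumour 1 was small for Fgf21 (5.45 against 5.40 CPM) and Cpt1a (312 against 305 CPM). Both genes overlapped between the groups without scaling. In 1 gene (2.56%), Hadha, every tumour profile lay below, against 8.89% of all genes. Counting both directions, 6 of the 39 (15.4%) had no overlap with all profiles, against 18.4% of all genes. Without tumour 1 there were 19 (48.7% against 26.6% of all genes). The count was 12 without tumour 3 (30.8% against 41%), 11 without non-tumour 2/3/4 (28.2% against 49%), 10 without non-tumour 1 (25.6% against 43.8%) and 7 without tumour 2/4 (17.9% against 28.7%).

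**Figure D2:**
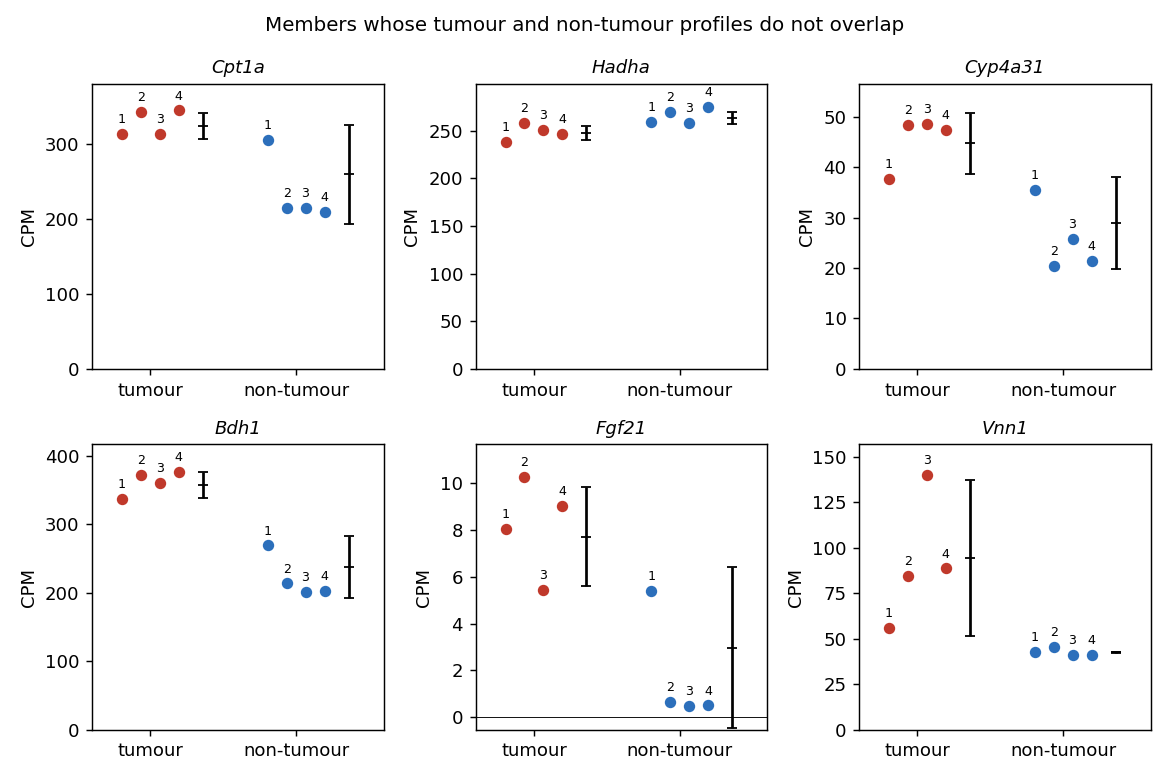
CPM (y axis, with 0 marked) in each library for the 6 genes whose tumour profiles (red) and non-tumour profiles (blue) do not overlap. Digits are the library numbers, and the black bar is the mean ± SD over 3 tumour or 2 non-tumour profiles, with near-identical libraries counted once. Non-tumour 1 stands close to the tumours for Cpt1a, Cyp4a31 and Fgf21.

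Levels were compared between genes per kilobase of exon. Acaa2, the last enzyme of the mitochondrial spiral, was highest with a mean of 517 CPM per kilobase over the groups, followed by the peroxisomal thiolase Acaa1b with 398 and by Etfa with 177. Cyp4a10 (136), Acadvl (117), Hsd17b4 (105) and Cyp4a14 (103) came next on this scale. The lowest were Ppargc1a with 0.915, Acot3 with 1.11 and Acot2 with 2.41 CPM per kilobase. Reads that fit several places were not counted, which lowers the level of genes with close copies. The share of 50-base windows of a gene's transcripts that also occur in another gene's was 44.8% for Etfb, 30.5% for Acaa1b, 29.8% for Cyp4a10, 27.7% for Acot2, 20.6% for Cyp4a31, 19.7% for Hadhb, 19.2% for Acot1, 19.1% for Acot3 and 12.9% for Acaa1a. Levels of these 9 genes are therefore uncertain. For Etfb the genes that share windows are Gm45233 and Mir7051. Whether they are copies elsewhere or overlap Etfb itself was not tested.

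**Figure D3:**
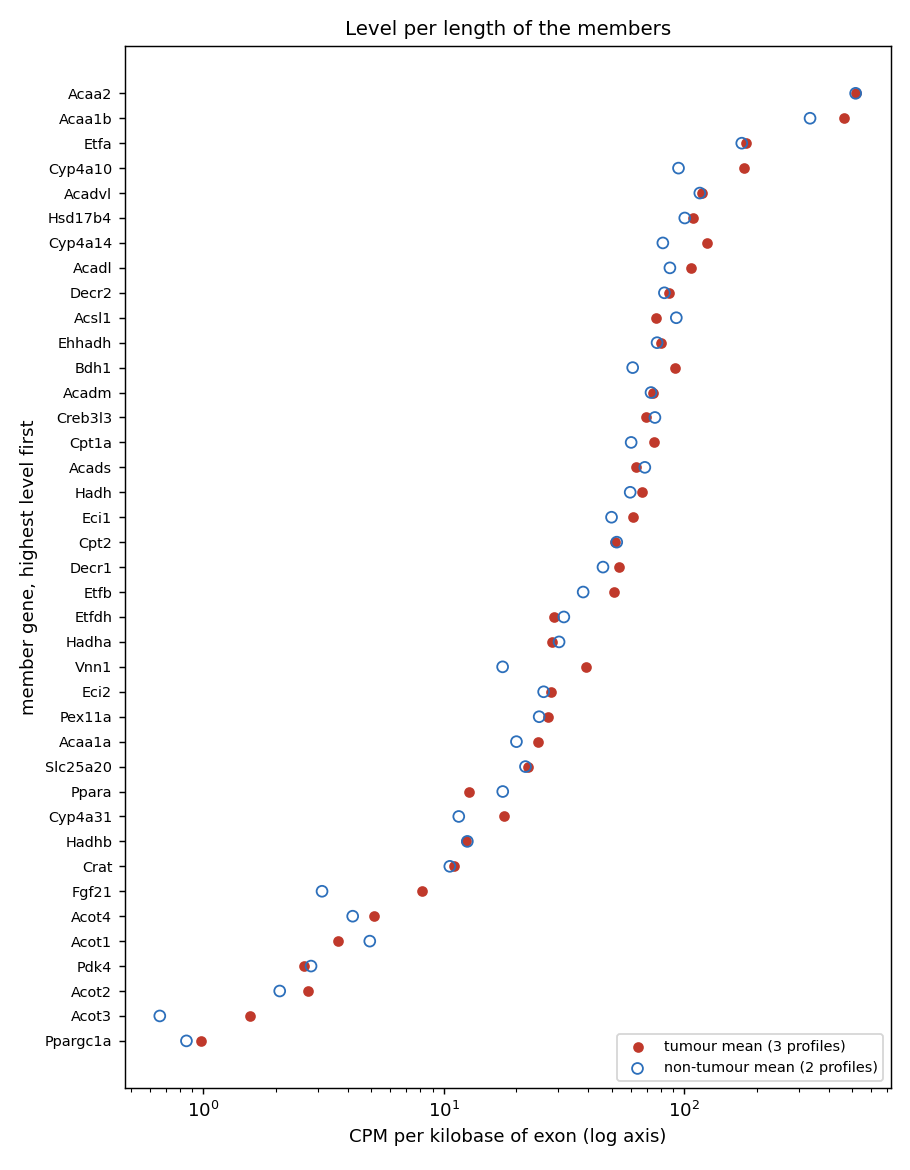
Mean level per kilobase of exon (x axis, log scale) of the 39 genes, ordered from the highest (y axis). Filled red points are means of 3 tumour profiles and open blue points means of 2 non-tumour profiles. The points lie close together for Acaa2 at the top and apart for Vnn1, Fgf21 and Acot3.

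The transcriptional regulators were measured first. Ppara, the receptor itself, stood at 43.4, 62.0, 40.7 and 62.2 CPM in tumours 1 to 4 and at 102, 31.7, 33.9 and 32.6 CPM in non-tumour pieces 1 to 4. Its highest library was non-tumour 1 and its lowest the near-identical non-tumour 2, 3 and 4, so the groups overlapped entirely. The log2 fold change was -0.47 (SE 0.46, edgeR adjusted p = 0.995), and it was 0.56 without non-tumour 1. Ppargc1a, the coactivator PGC-1 alpha, was at 5.83, 6.28, 6.91 and 6.86 CPM in the tumours and at 5.25, 5.19, 6.55 and 6.24 CPM in the non-tumour pieces. Its spread was narrow and the groups overlapped. Creb3l3 encodes CREBH, a liver transcription factor that acts with PPAR alpha on Fgf21. Its level was 198, 188, 251 and 176 CPM in tumours 1 to 4 and 237, 219, 218 and 219.6 CPM in non-tumour pieces 1 to 4, with tumour 3 highest.

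Activation and carnitine transport showed no shared direction between the groups, with 3 positive and 2 negative fold changes in 5 genes. Acsl1, the main acyl-CoA synthetase of liver, was at 632, 768, 1003 and 748 CPM in tumours 1 to 4 and at 887, 1039, 1091 and 1043 CPM in non-tumour pieces 1 to 4. Only tumour 3 reached the non-tumour range (log2 fold change -0.29, SE 0.28, edgeR adjusted p = 0.995). Without tumour 3 it was -0.49, without tumour 1 -0.15 and without non-tumour 2/3/4 -0.16. Cpt1a, the rate-controlling carnitine palmitoyltransferase of the outer mitochondrial membrane, was at 313, 342, 312 and 344 CPM in the tumours and at 305, 214, 214 and 209 CPM in the non-tumour pieces. Its 4 tumour libraries were alike, while non-tumour 1 lay just below them and the others well below. The mean was 323 ± 17.4 CPM (SD, n = 3) in tumour and 259 ± 65.6 CPM (SD, n = 2) in non-tumour, a log2 fold change of 0.31 (SE 0.23, edgeR adjusted p = 0.995), which was 0.58 without non-tumour 1 and 0.08 without non-tumour 2/3/4. Cpt2, the inner-membrane partner of Cpt1a, the carrier Slc25a20 and the carnitine acetyltransferase Crat had log2 fold changes from -0.04 to 0.04. These 3 were highest in tumour 3, at 179, 162 and 81.3 CPM in that order.

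Of the 10 genes of mitochondrial beta-oxidation, 6 had a positive and 4 a negative fold change, all between -0.14 and 0.28 on the log2 scale. Acaa2 was at 616, 708, 1022 and 714 CPM in tumours 1 to 4 and at 700.5, 896, 843 and 854 CPM in non-tumour pieces 1 to 4. The tumours held both its lowest and its highest library, and the means were 783 ± 212 CPM (SD, n = 3) and 782 ± 116 CPM (SD, n = 2). Acadl, the long-chain acyl-CoA dehydrogenase, had the largest positive fold change of the group at 0.28 (SE 0.27, edgeR adjusted p = 0.995). It was at 163, 195, 280.2 and 205 CPM in the tumours and at 168, 178, 184 and 185 CPM in the non-tumour pieces, with tumour 1 below all of the latter. Without tumour 3 the fold change of Acadl was 0.04. Acads, which handles short chains, had the lowest at -0.14 (SE 0.24). Its libraries were at 114, 144, 171 and 139.6 CPM in tumour and 138, 184, 162 and 175 CPM in non-tumour, again with tumour 1 lowest and tumour 3 the highest tumour. Without non-tumour 2/3/4 the log2 fold change of Acads was 0.05.

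The trifunctional protein, which carries out the last 3 steps for long chains, stood apart from the other listed genes of mitochondrial beta-oxidation in its narrow spread. Its alpha subunit Hadha, described after its values were seen, was at 239, 258, 251 and 247 CPM in tumours 1 to 4 and at 259, 270.2, 258 and 276 CPM in non-tumour pieces 1 to 4. The means were 248 ± 7.55 CPM (SD, n = 3) and 264 ± 6.31 CPM (SD, n = 2), a log2 fold change of -0.10 (SE 0.19, edgeR adjusted p = 0.995), and single libraries of tumour 2 and non-tumour 3 met. The beta subunit Hadhb lay between 76.9 and 93.8 CPM in all 8 libraries. A narrow spread was not particular to these subunits. Echs1, a mitochondrial enzyme outside the 39 genes and picked after its values were seen, ran from 216 to 252 CPM. Exon lengths are 8730 bases for Hadha, 6595 for Hadhb and 8286 for Echs1. The other long members differed among themselves. Acsl1 (10483 bases) and Acot4 (6674 bases) spread more widely, with ratios of tumour 3 to tumour 1 of 1.59 and 2.16. Etfdh (7505 bases) and Ppargc1a (6592 bases) had smaller ratios of 1.25 and 1.19. The part of length in the spread was not tested. The remaining mitochondrial genes, the dehydrogenases Acadm, Acadvl and Hadh and the auxiliary enzymes Eci1 and Decr1 for unsaturated chains, had log2 fold changes from 0.02 to 0.28. All 5 were highest in tumour 3, where Eci1 reached 202 CPM against 77.1 CPM in tumour 1.

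Electron transfer from the acyl-CoA dehydrogenases runs through the flavoprotein subunits Etfa and Etfb and the dehydrogenase Etfdh. Etfa was at 277, 309, 404 and 316 CPM in tumours 1 to 4 and at 293, 342, 345 and 344 CPM in non-tumour pieces 1 to 4. Its fold change was 0.05 on the log2 scale and -0.12 without tumour 3. Etfb was at 48.5, 42.5, 85.0 and 47.0 CPM in the tumours and at 35.9, 54.2, 48.8 and 54.9 CPM in the non-tumour pieces. Tumour 3 alone exceeded the non-tumour range in both subunits, and the fold change of Etfb was 0.41 with it and 0.06 without it. Etfdh was at 181, 232, 226 and 243 CPM in tumour and 242, 231, 234 and 234 CPM in non-tumour, with tumour 1 lowest.

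All 7 peroxisomal genes were highest in tumour 3 and lowest in tumour 1. All 7 had a positive fold change, from 0.04 to 0.46 on the log2 scale, none past the test, but the sign rested on tumour 3: it was positive for 0 of 7 without tumour 3 and with limma voom, which weights libraries by quality, and for 4 of 7 without non-tumour 1. Acaa1b, a thiolase of the peroxisomal spiral and a classical PPAR alpha target in mice, was at 417, 753, 1540.0 and 759.5 CPM in tumours 1 to 4. The non-tumour pieces were at 565, 759, 736 and 740.5 CPM, inside the tumour range on both sides. The log2 fold change was 0.46 (SE 0.54, edgeR adjusted p = 0.995) and -0.17 without tumour 3. Its paralog Acaa1a was at 72.8 CPM in tumour 1 and 171 CPM in tumour 3. The bifunctional enzyme Ehhadh, another strong PPAR alpha target, was at 170.1, 258, 288 and 253 CPM in the tumours and between 220.4 and 234 CPM in the non-tumour pieces. The second bifunctional enzyme Hsd17b4 ran from 264 to 473 CPM, the auxiliary enzymes Eci2 and Decr2 from 105 to 228 CPM and from 134 to 278 CPM, and Pex11a, which promotes division of peroxisomes, from 51.3 to 133 CPM, each from tumour 1 to tumour 3. The non-tumour libraries of these 4 genes lay between those ends.

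The acyl-CoA thioesterases were low in level and wide in spread. Acot1, the cytosolic form, was at 8.84, 9.57, 23.5 and 11.6 CPM in tumours 1 to 4 and at 14.4, 25.2, 22.1 and 25.3 CPM in non-tumour pieces 1 to 4. Tumours 1, 2 and 4 lay below all non-tumour pieces and tumour 3 among them (log2 fold change -0.46, SE 0.46, edgeR adjusted p = 0.995). Without tumour 3 it was -1.01 and without non-tumour 2/3/4 -0.03. Acot3, a peroxisomal form, was at 1.00, 4.71, 10.7 and 4.14 CPM in the tumours and at 1.21, 4.31, 2.93 and 2.75 CPM in the non-tumour pieces. It rests on 22 to 169 counts per library. Its log2 fold change was 1.17 (SE 0.93, edgeR adjusted p = 0.995), and tumour 1 and non-tumour 1 were both low. The fold change was 0.23 without tumour 3, 0.64 without non-tumour 1 and 2.13 without non-tumour 2/3/4. Acot4, a peroxisomal thioesterase for dicarboxylic acids, was at 22.2, 33.7, 47.9 and 31.5 CPM in tumour and 24.3, 30.1, 31.6 and 33.1 CPM in non-tumour. The fold change of Acot4 was 0.28 on the log2 scale and -0.04 without tumour 3. The mitochondrial form Acot2 ran from 2.64 CPM in tumour 1 to 9.76 CPM in tumour 3.

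Cyp4a10, Cyp4a14 and Cyp4a31, whose enzymes hydroxylate the omega end of fatty acids, had positive fold changes, none past the test. Cyp4a10 was at 104, 343, 678 and 334 CPM in tumours 1 to 4 and at 220.5, 172, 188 and 177 CPM in non-tumour pieces 1 to 4. Tumours 2, 3 and 4 exceeded every non-tumour piece and tumour 1 lay under all of them, so the group mean of 374 ± 289 CPM (SD, n = 3) was not distinguishable from 199.8 ± 29.2 CPM (SD, n = 2) (log2 fold change 0.90, SE 0.70, edgeR adjusted p = 0.995). Tumour 3 carried that value: it was 0.14 without tumour 3 and 0.17 with limma voom. Cyp4a14, added after its values were seen, likewise had tumour 1 lowest and the other tumours above every non-tumour piece, with 86.5, 435, 444 and 441 CPM in tumour and 175, 252, 249 and 248 CPM in non-tumour. Cyp4a31 (ENSMUSG00000028712, chr4:115563649-115579015, GRCm38) was at 37.7, 48.3, 48.6 and 47.4 CPM in the tumours and at 35.5, 20.4, 25.9 and 21.4 CPM in the non-tumour pieces. Here tumour 1 also lay above non-tumour 1, by a small margin. The means were 44.7 ± 6.11 CPM (SD, n = 3) and 29.0 ± 9.13 CPM (SD, n = 2), a log2 fold change of 0.62 (SE 0.25, edgeR unadjusted p = 0.0423, adjusted p = 0.995), which was 0.98 without non-tumour 1 and 0.33 without non-tumour 2/3/4.

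Of the ketone body enzyme and the further PPAR alpha targets, 3 of 4 (75%) had tumour profiles above all non-tumour profiles, against 9.47% of all genes tested. These 3 are among the 5 of the 39 genes (12.8%) named above, in a role of only 4 genes. For Fgf21 the order rested on scaling. It had 86 of 17285128 assigned reads in tumour 3 and 107 of 19207086 in non-tumour 1, so without scaling non-tumour 1 was higher. Bdh1 (ENSMUSG00000046598, chr16:31422280-31458901, GRCm38), the mitochondrial enzyme that makes beta-hydroxybutyrate, was at 337, 373, 360.2 and 377 CPM in tumours 1 to 4 and at 269, 214, 201 and 203 CPM in non-tumour pieces 1 to 4. The tumour libraries were tightly grouped, and the lowest of them stood clear of the highest non-tumour library. The means were 357 ± 18.9 CPM (SD, n = 3) and 238 ± 44.8 CPM (SD, n = 2), a log2 fold change of 0.58 (SE 0.22, edgeR unadjusted p = 0.0352, adjusted p = 0.995). Vnn1 (ENSMUSG00000037440, chr10:23894688-23905343, GRCm38) encodes the pantetheinase vanin-1, a PPAR alpha target of hepatocytes. It was at 55.9, 84.6, 140.2 and 88.6 CPM in the tumours and at 42.6, 45.3, 40.9 and 40.9 CPM in the non-tumour pieces, which were alike. The mean of 94.3 ± 42.7 CPM (SD, n = 3) compared with 42.5 ± 0.124 CPM (SD, n = 2), a log2 fold change of 1.14 (SE 0.39, edgeR unadjusted p = 0.0241, adjusted p = 0.995), which was 0.74 without tumour 3.

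Fgf21 (ENSMUSG00000030827, chr7:45613886-45615490, GRCm38) encodes a hepatic hormone that PPAR alpha induces in fasting. Its level was 8.06, 10.3, 5.45 and 9.03 CPM in tumours 1 to 4 and 5.40, 0.641, 0.477 and 0.499 CPM in non-tumour pieces 1 to 4. Non-tumour 1 stood beside tumour 3, and the other 3 non-tumour libraries were far lower, with 7 to 11 counts each. The mean was 7.72 ± 2.12 CPM (SD, n = 3) in tumour and 2.97 ± 3.44 CPM (SD, n = 2) in non-tumour, a log2 fold change of 1.43 (SE 0.85, edgeR adjusted p = 0.995). It was 3.81 without non-tumour 1 and 0.52 without non-tumour 2/3/4. Without a filter on low counts, which brought 24531 genes into the edgeR fit and called 427 of them, Fgf21 and Vnn1 were called and the other 37 genes were not. Pdk4, the kinase that shuts off pyruvate dehydrogenase when fat is burned, was at 9.43, 14.3, 4.88 and 12.4 CPM in the tumours. Its non-tumour libraries were at 12.4, 6.64, 8.05 and 7.43 CPM. Tumour 3, the highest for most genes of the pathway, was the lowest for Pdk4, and the sign of its log2 fold change of -0.08 (SE 0.44) turned to 0.22 without tumour 3 and to 0.32 without non-tumour 1.

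The tumours differed widely among themselves across the pathway. Tumour 3 was the highest of the 5 profiles for 28 of the 39 genes (71.8%) against 29.9% of all genes tested, and tumour 1 was the lowest for 26 (66.7%) against 19.6%. Both held for 21 genes (53.8%) against 8.97% of all genes. These counts were chosen after the values were seen and carry no test. Tumour 3 exceeded tumour 1 in 34 of the 39 genes (87.2%) against 49.3% of all genes tested. The median log2 difference was 0.78, against -0.01 over all genes. The ratio of tumour 3 to tumour 1 was 10.7 for Acot3, 6.50 for Cyp4a10, 5.13 for Cyp4a14, 3.70 for Acot2 and 3.69 for Acaa1b. It was below 1 for Hadhb (0.976), Cpt1a (0.997), Ppara (0.939), Fgf21 (0.676) and Pdk4 (0.518). The receptor transcript itself thus did not follow the order of most of its targets across these 2 tumours, and neither did Fgf21 or Pdk4.

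**Figure D4:**
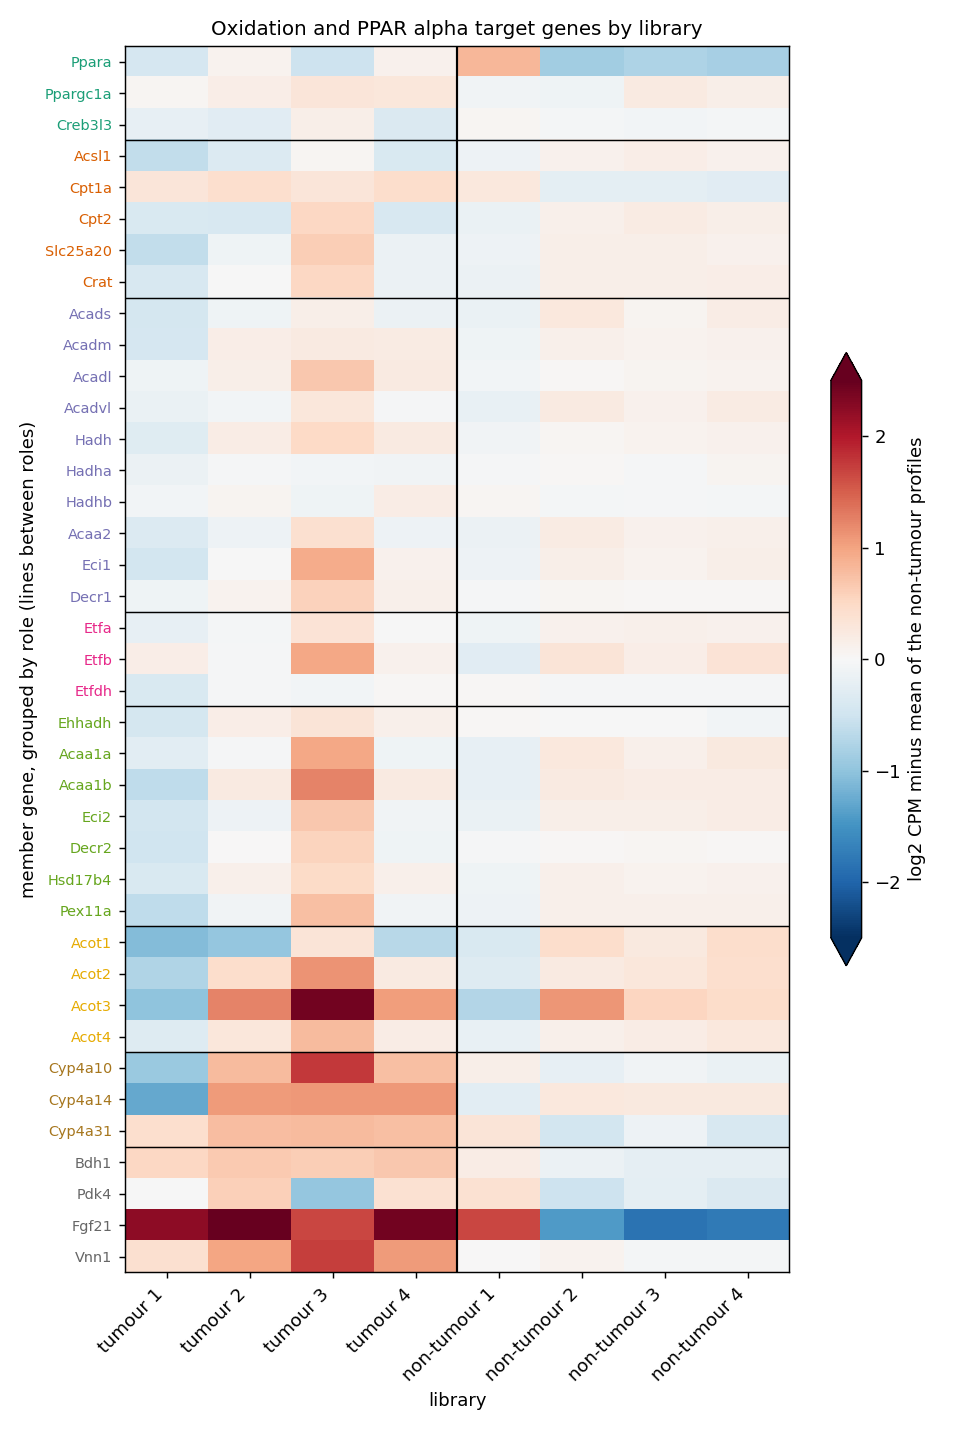
Log2 CPM of the 39 genes (y axis, by role) in each of the 8 libraries (x axis), each relative to the mean over the 2 non-tumour profiles, with red higher and blue lower. Colours stop at 2.5 in either direction. The tumour 3 column is red and the tumour 1 column blue for most genes, while tumours 2 and 4, and non-tumour 2, 3 and 4, look alike.

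The contrast of the tumours differed by role. Relative to the mean of the non-tumour profiles, the median of the peroxisomal genes was -0.45 in tumour 1, -0.05 in tumour 2/4 and 0.67 in tumour 3 on the log2 scale. For the thioesterases these medians were -0.84, 0.28 and 0.95, and for Cyp4a10, Cyp4a14 and Cyp4a31 together -0.93, 0.77 and 1.09. Mitochondrial beta-oxidation had a smaller span, with -0.23, 0.09 and 0.34, as did electron transfer with -0.20, 0.00 and 0.35. The regulators spanned least, from -0.20 to 0.14. The 4 ketone and other target genes had positive medians in all 3 tumour profiles (0.46, 0.85 and 1.09). Summed over the 39 genes, the level was 5976 CPM in tumour 1, 8076 CPM in tumour 2/4 and 11040 CPM in tumour 3, beside 7186 CPM in non-tumour 1 and 7967 CPM in non-tumour 2/3/4.

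**Figure D5:**
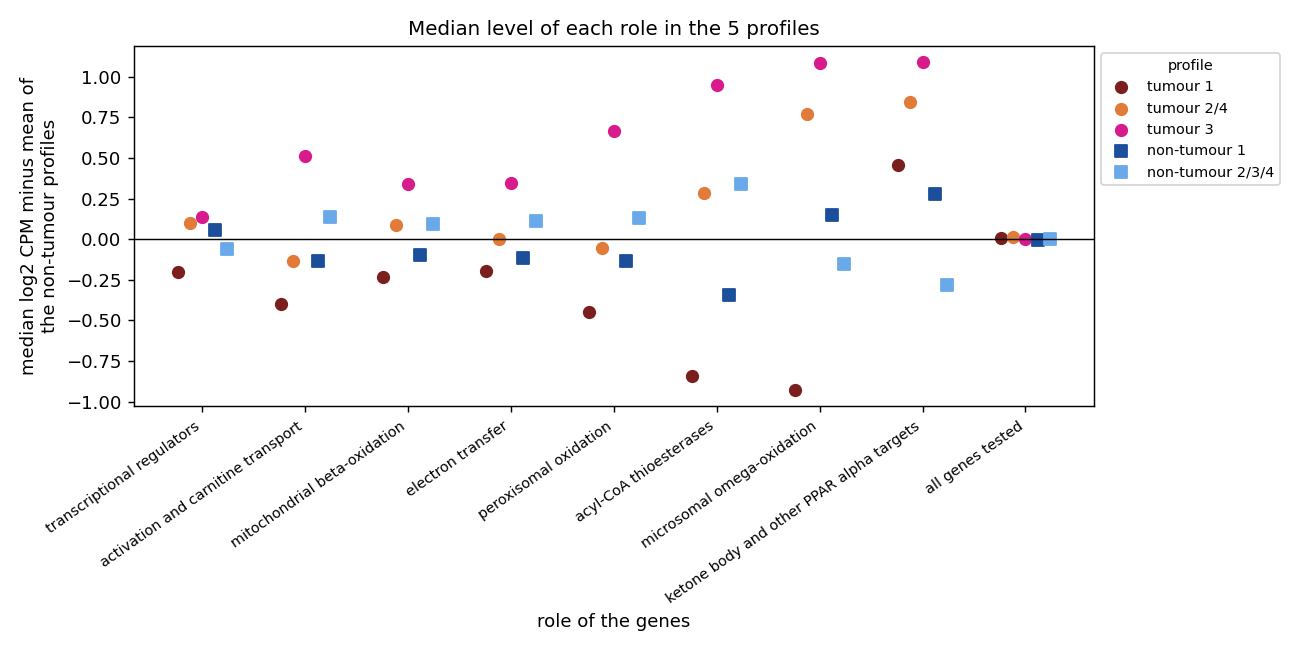
Median over the genes of each role (x axis) of log2 CPM relative to the mean over the 2 non-tumour profiles (y axis), for the 5 profiles, circles for tumour and squares for non-tumour. Points have no error bar because each is a median over genes within 1 profile. Tumour 3 is highest in every role and tumour 1 lowest in all but the ketone and other target genes, and all genes tested lie at 0.

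Transcript length moved with tumour 3. Over all genes tested the median log2 difference between tumour 3 and tumour 1 was 0.31 for genes with up to 2000 bases of exon, 0.06 from there to 4000, -0.07 to 6000 and -0.18 above. For the pathway's genes the medians in these classes were 0.73 (5 genes), 0.81 (22 genes), 1.01 (6 genes) and 0.28 (6 genes), each above that of all genes of the class. The part of length in the order of the tumours was not tested further. Leaving out TMM scaling moved the median log2 difference of all genes between these tumours by -0.13. Tumour 3 was then highest for 22 of the 39 genes against 20.3% of all, and tumour 1 lowest for 28 against 19.5%. The 8 hepatocyte markers summed to 175600 CPM in tumour 1 and to 121500 CPM in tumour 3, a sum that is mostly Alb (139600 and 86660 CPM). Of the 8, Alb, Apoa1, Apob, Hnf4a and Cps1 were lower in tumour 3 than in tumour 1. Ttr (5992 CPM in tumour 1 and 11070 CPM in tumour 3), Serpina1c (4587 and 5536 CPM) and Asgr1 (344 and 535 CPM) were higher in tumour 3, the order of most of the pathway's genes. Marker sums of other cell types were higher in tumour 1 than in tumour 3. They were 200.1 and 143.9 CPM for Kupffer cells, and 139 and 109.4 CPM for sinusoidal endothelium. Stellate cells and fibroblasts had 235.6 and 216.3 CPM, and cholangiocytes 9.79 and 3.04 CPM. Within these sums Clec4f, Stab2, Dcn and Lrat were higher in tumour 3. The part of all these markers in the order of the tumours was not tested.

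Non-tumour 1 was compared with the other non-tumour pieces gene by gene. The ratio of non-tumour 1 to non-tumour 2/3/4 was 10.01 for Fgf21, 3.13 for Ppara, 1.68 for Pdk4, 1.57 for Cyp4a31 and 1.44 for Cpt1a. It was 0.364 for Acot3, 0.596 for Acot1 and 0.644 for Acot2. The 6 Kupffer cell markers summed to 527 CPM in non-tumour 1 and to between 144 and 200.1 CPM in the 7 other libraries. The 5 markers of sinusoidal endothelium summed to 222 CPM there and to between 96.4 and 139 CPM elsewhere, and the 5 lymphocyte markers to 19.1 CPM against 8.80 to 13.8 CPM. None of these 16 markers was at 0 throughout, and their part in the levels of Fgf21 and Ppara was not tested. Of the 3 skeletal muscle markers 2 were at 0 in every library, and the kidney markers reached at most 0.0682 CPM.

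Other genes of the same pathway came from a further list of 59, of which 58 were tested and Cpt1b, the muscle form of the carnitine transferase, had at most 1 count in any library. edgeR called 0 of the 58, with 1 at an unadjusted p under 0.05. The log2 fold change was positive for 25 and negative for 33, with a median of -0.07. In 5 of these genes (8.62%, against 8.89% of all genes) the tumour profiles lay below all non-tumour profiles and in 1 (1.72%, against 9.47%) above. Cyp4f14, an omega-hydroxylase of another Cyp4 branch, had the lowest p and was at 139, 127, 180.2 and 121 CPM in tumours 1 to 4 and at 230.3, 248, 247 and 252 CPM in non-tumour pieces 1 to 4. Its tumour libraries all lay below its non-tumour libraries (log2 fold change -0.71, SE 0.23, edgeR unadjusted p = 0.0190, adjusted p = 0.995).

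Of further Cyp4a genes in this list, named after their values were seen, Cyp4a12a and Cyp4a12b had negative fold changes, unlike Cyp4a10, Cyp4a14 and Cyp4a31, and Cyp4a32 had one of 0.14. Cyp4a12a was at 142, 79.9, 369.6 and 80.7 CPM in tumours 1 to 4 and at 289, 384, 411 and 389 CPM in non-tumour pieces 1 to 4 (log2 fold change -0.80, SE 0.61, edgeR adjusted p = 0.995). Cyp4a12b was at 74.9, 39.9, 170.2 and 37.8 CPM in the tumours and at 164, 228, 240.3 and 224 CPM in the non-tumour pieces (log2 fold change -1.07, SE 0.57, edgeR adjusted p = 0.995). Both were lowest in tumours 2 and 4, and tumour 3 reached the non-tumour range.

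Abcd2, a peroxisomal transporter of very long chains, had the p next to that of Cyp4f14, with 87.9, 70.0, 18.1 and 68.6 CPM in the tumours and 26.4, 8.62, 9.62 and 9.67 CPM in the non-tumour pieces. Tumour 3 lay under non-tumour 1 (log2 fold change 1.72, SE 0.74, edgeR adjusted p = 0.995). Rxra, the partner of PPAR alpha, was at 271, 295, 217 and 296 CPM in tumour and 433, 303, 296 and 298 CPM in non-tumour, with non-tumour 1 highest as for Ppara. In this list too, tumour 1 was the lowest profile for 39 of 58 genes (67.2%) and tumour 3 the highest for 25 (43.1%).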

How the data were processed

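Raw read counts per gene were deposited, 1 file for each of 8 libraries, and per the file headers the authors made these counts with featureCounts 1.6.2 over exons of Ensembl release 95 (GRCm38), strand setting 2, without multi-mapping reads. STAR 2.5.0 and Subread 1.6.2 are named in the submitters' processing notes. Symbols matched 54723 of 54838 gene IDs. Members and lists were chosen with earlier results of these data known.

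Libraries whose counts differed by a chi-square under 10 per degree of freedom (over genes with at least 20 reads in both together) were summed, giving 5 profiles. The main test was edgeR 4.0.16 in R 4.3.3 (glmQLFit, robust, and glmQLFTest) with TMM scaling, filterByExpr (minimum count 10, minimum total 15) and Benjamini-Hochberg adjustment over all genes, threshold 0.05. Standard errors are the log2 fold change over the root of F. CPM use TMM-scaled sizes of the 8 libraries, and a profile is the mean of its libraries. Log2 values of profiles add 0.1 CPM in counts, medians and length classes. The script was tested on simulated counts. Values by library are given, per role, for the gene with the highest level per length, the largest fold change in each direction, and genes without overlap past 0.5 on the log2 scale. Alternatives were 8 separate libraries with and without a replicate block, 1 library of each near-identical set, other scalings and filters, DESeq2 1.42.0, limma 3.58.1 voom with quality weights, and leaving out each profile.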

Additional observations from a re-analysis of the deposited data

How the results depend on the processing

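No gene of the pathway passed the threshold under any alternative run except without a filter on low counts. There edgeR called 2 of the 39 (Fgf21, log2 fold change 1.42, and Vnn1, 1.10) and 427 of the 24531 genes tested. Over all genes, 56 were called with 8 separate libraries, 2 with DESeq2, and 0 to 5 when 1 profile was left out. The number of pathway genes whose groups do not overlap ran from 7 (17.9%, against 28.7% of all genes, without tumour 2/4) to 19 (48.7% against 26.6%, without tumour 1) when 1 profile was left out. Under the other alternatives it ran from 4 (10.3% against 14.8%, without a filter on low counts) to 7 (17.9% against 18.2%, 1 library of each near-identical set). It was 5 with DESeq2 size factors in edgeR (12.8% against 18.5%) and 5 without scaling (12.8% against 15.8%). Fgf21 and Cpt1a were not among the 5 without scaling. Whether the replicate numbers pair the libraries could not be told. The correlations of the deviations were 0.34, -0.12, 0.26 and -0.10 for numbers 1 to 4. Non-tumour 2, 3 and 4 are near-identical, as are tumour 2 and 4, so exchanging these numbers would change little. With a replicate block, edgeR on 8 libraries called 0 genes of the pathway (7 at an unadjusted p under 0.05) and 0 of all (2264). Of 315 alternative log2 fold changes for 21 named genes, 292 kept direction and side of the threshold, 21 changed sign and 2 passed the threshold. The sign changed for Ppara with 8 libraries (0.0516) and with the replicate block (0.25), for Etfa with 8 libraries (-0.0207), the replicate block (-0.0317) and voom (-0.0645), for Acaa1b with voom (-0.0327), and for Pdk4 with 8 libraries (0.25), the replicate block (0.20), 1 library of each set (0.0051) and voom (0.35). With 1 profile left out, the log2 fold change ran from -1.07 to 0.56 for Ppara, from -0.12 to 0.17 for Etfa, from -0.17 to 0.80 for Acaa1b, from -0.25 to 0.16 for Acaa2, from -0.31 to 0.0472 for Acads, from -0.0362 to 0.52 for Acot4 and from -0.47 to 0.32 for Pdk4. The cause was not tested. The median over the pathway was -0.06 with voom, -0.12 without tumour 3 and 0.30 without tumour 1. Leaving out a non-tumour profile leaves 1, which is assumed to vary like the tumours. Depth limits Fgf21 and Acot3 most.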
